A study of Mus musculus with 15 samples.

Results

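The genes of the proteasome, the protease complex that breaks down ubiquitin-tagged proteins, were examined in mouse 4T1 cells treated with berry extracts or with gold nanoparticles made from them. In cells treated with blackberry extract (BLA), 34 of 35 measured subunit genes were below their level in untreated cells, with a median log2 fold change of -0.52. In blueberry extract (BLU), 34 of 35 were again below it, with a median of -0.30. Of all 17647 genes tested, 50.9% were below the untreated level in BLA and 50.5% in BLU. The blackberry nanoparticles (BLA-A) gave another picture, since the subunit genes spread apart from -1.45 for Psmd7 to 1.35 for Psmb2. All genes tested also spread most in BLA-A, with an SD of 0.89 beside 0.69 for the subunit genes. All 8 measured genes of the beta ring were higher in BLA-A, or 7 when libraries were scaled by total counts alone. Of all genes tested, 50.8% were lower in BLA-A. In the blueberry nanoparticles (BLU-A), 30 of 35 were lower by small amounts, with a median of -0.20, where 49.7% of all genes were lower. No single subunit gene passed the test of the 4 treated libraries together against the untreated one, and single treatments, with 1 library each, had no test.

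The members were the rows of the count table whose whole symbol is Psma, Psmb, Psmc or Psmd with digits only, without Psmb8 and Psmb9. This rule found 37 of 40402 genes, and 35 of them reached 1 CPM (a count scaled to the size of its library) in at least 1 library. Psma8, a testis form of an alpha subunit, had 3 counts in untreated cells, 4 in BLU, 0 in BLA, 0 in BLU-A and 2 in BLA-A. Psmb11, the thymus form of a catalytic subunit, had 6 counts in untreated cells, 1 in BLA-A and 0 in BLA, BLU and BLU-A. These are at the level of a few reads in libraries where 3 counts correspond to between 0.111 and 0.117 CPM, so neither gene was compared. The other 35 had between 192 and 9729 counts in a library.

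4T1 is an established line of mouse mammary carcinoma, labelled wild type, grown in serum-containing medium, and all 5 groups share this line. One group was untreated, and the others received BLA, BLU, BLA-A or BLU-A 24 hours after seeding. BLA and BLU are ethanol extracts of freeze-dried fruit, and BLA-A and BLU-A are gold particles made by reducing a gold salt with these extracts. Bulk RNA-seq gave 3 columns per condition, which the labels number as replicates. The paper defines its n as independent biological replicates. The study's sequencing report gives 1 raw read total per condition and lists 3 subsets of reads under it, and the 3 columns differed by less than the sampling noise (chi-square per degree of freedom from 0.0951 to 0.475). They were therefore averaged and counted as 1 sample, so that fold changes compare 2 libraries and intervals cover counting error only. The batch label gives each sample a date of its own, and batch and condition cannot be told apart. Library totals were between 25613778 and 26956442 counts, and the TMM factor, the composition correction of edgeR, was 0.904 in BLA-A and between 1.01 and 1.03 in the other 4 libraries. All 5 epithelial markers looked up were present, with Krt18 between 452 and 690.0 CPM, Krt8 between 176 and 435 CPM, Cdh1 between 124 and 233 CPM, Epcam between 39.8 and 69.0 CPM and Krt19 between 8.31 and 45.1 CPM. BLA-A was the highest library for Krt8, Krt18, Krt19 and Cdh1 and the lowest for Epcam, and in BLA Krt8 was at -0.65 on the log2 scale against untreated cells. Their part in the results was not tested. The genes Ptprc, Pecam1 and Col1a1, which mark leukocytes, endothelium and fibroblasts, stayed at or under 2.21 CPM. Of the other markers looked up, Cd68 was between 6.91 and 8.83 CPM and the fibroblast marker Pdgfra between 86.1 and 102 CPM, and Cd3e, Cdh5 and Adipoq were under the filter.

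The proteasome is a barrel of stacked rings with a cap. The alpha rings gate the entry, the beta rings hold the protein-cutting sites inside, and the cap, or regulatory particle, has a base of ATPases that unfold the substrate and a lid that removes its ubiquitin chain. The subunits are needed together in one complex, and in mammals the transcription factor NRF1, the product of Nfe2l1, is known to raise many subunit genes when proteasome capacity falls short. Tumor cells with high protein turnover lean on this system, and proteasome inhibitors are used against some cancers.

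As a whole, the 35 subunit genes took 0.361% of the counts in untreated cells (exact 95% interval 0.358 to 0.363). The share was 0.289% in BLU, 0.251% in BLA, 0.320% in BLU-A and 0.290% in BLA-A. All 4 treated libraries were thus under the untreated one in this share. After TMM scaling, the summed level of the subunit genes was 3494 CPM in untreated cells, 2816 in BLU, 2490.0 in BLA, 3108 in BLU-A and 3208 in BLA-A. Since RNA came from bulk cultures, fewer cells with a transcript and less of it per cell cannot be told apart.

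The size of the shift in each treatment was set beside that of all 17647 genes tested, on log2(TMM-normalized CPM + 0.5). The median of the subunit genes was -0.30 in BLU, -0.52 in BLA, -0.20 in BLU-A and 0.11 in BLA-A, which corresponds to 0.810, 0.697, 0.868 and 1.08 times the untreated level. The medians of all genes were -0.01 in BLU, BLA and BLA-A and 0.00 in BLU-A. The SD among the subunit genes was 0.23 in BLU, 0.29 in BLA, 0.18 in BLU-A and 0.69 in BLA-A. The SD among all genes tested, which include weakly expressed ones, was 0.62 in BLU, 0.76 in BLA, 0.57 in BLU-A and 0.89 in BLA-A. The subunit genes therefore lay closer together than all genes in each treatment. Both the subunit genes and all genes were furthest apart in BLA-A. Scaling by total counts moved the median of all genes in BLA-A from -0.01 to -0.19 and that of the subunit genes to -0.078, which left the subunit genes 0.11 above all genes, where TMM left them 0.13 above. Against the 8932 protein-coding genes with a mean of at least 10 CPM, whose BLA-A median was 0.097 with TMM, the subunit median of 0.11 in BLA-A was nearly the same.

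Beyond a log2 fold change of 0.5 in size, 18 of 35 subunit genes were lower and 0 were higher in BLA, where 21.5% of all genes tested were lower and 21.2% were higher. In BLU, 6 were lower and 0 higher, against 14.6% and 18.3% of all genes. BLA-A had 8 lower and 6 higher, against 26.1% and 23.4%. The higher genes were 42.9% of those past 0.5 in BLA-A, 30.8% with scaling by total counts (4 higher, 9 lower) and 53.3% with DESeq2 size factors (8 higher, 7 lower). In BLU-A only Psmc4 was lower by that much and 0 were higher, against 12% and 12.9% of all genes. Past 1 in size, BLA held 2 subunit genes (16.5% of all genes), BLU 0 (10.3%), BLA-A 7 (20.9%) and BLU-A 0 (7.85%). The all-gene shares include weakly expressed genes, which vary more. Among the 8932 coding genes of at least 10 CPM, a level that all 35 subunit genes reach, the share lower by over 0.5 was 6.44% in BLU, 13.8% in BLA, 1.41% in BLU-A and 15.7% in BLA-A. The share higher by over 0.5 was 10.4% in BLU, 13.8% in BLA, 4.88% in BLU-A and 24.9% in BLA-A.

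**Figure D1:**
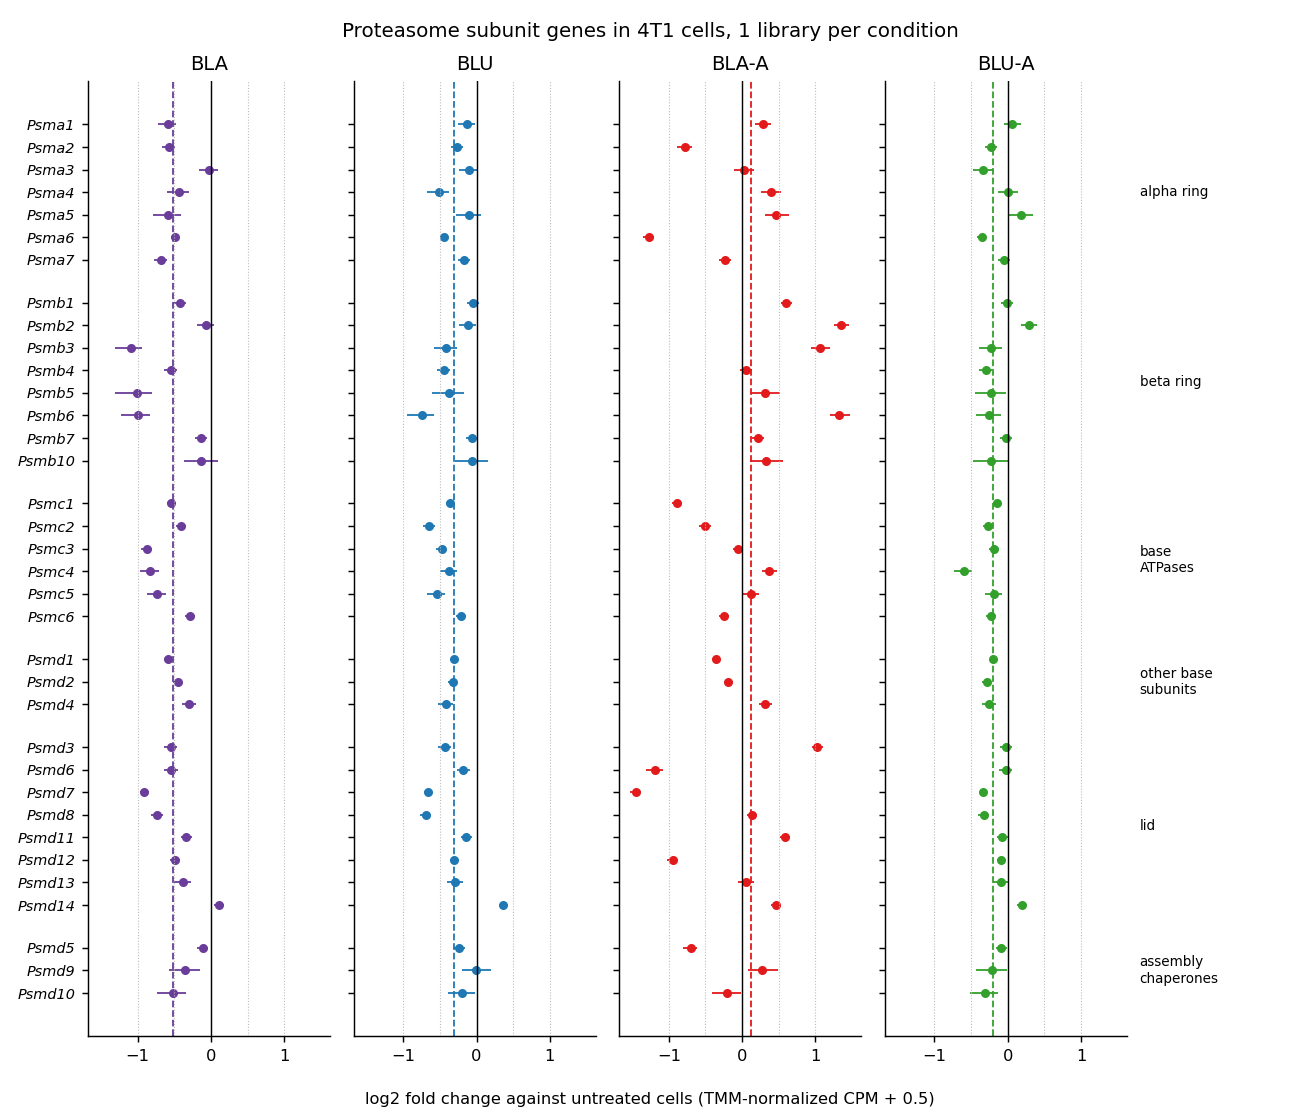
Log2 fold change of each of the 35 subunit genes against untreated cells, with 1 panel per treatment (TMM-normalized CPM + 0.5, 1 library per condition), grouped by place in the complex. Bars are exact binomial 95% counting intervals and dashed lines are the medians (-0.52, -0.30, 0.11 and -0.20 from left to right). Dotted lines mark 0.5 and 1 in size. The points reach from -1.09 to 0.11 in BLA, -0.74 to 0.36 in BLU, -1.45 to 1.35 in BLA-A and -0.60 to 0.29 in BLU-A.

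The alpha ring, the gate of the barrel, was lower in both extracts, where all 7 measured members were below untreated cells. Its median was -0.57 in BLA and -0.16 in BLU. In BLA, Psma1, Psma2, Psma5 and Psma7 lay between -0.57 and -0.68. In BLU, Psma4 was the furthest at -0.51. BLA-A split the ring, with 4 members above and 3 below, a median of 0.02 and no member higher by 0.5, and scaling by total counts put Psma3 below 0 and the median at -0.17. Psma6 carried the low end. Its level was 219 CPM in untreated cells, 160.3 in BLU, 155 in BLA, 170.5 in BLU-A and 90.3 in BLA-A. The BLA-A library was thus the lowest and the untreated one the highest, a log2 fold change of -1.27 (counting interval -1.35 to -1.20). Psma2 had the same order of its extremes, with 94.4 CPM in untreated cells and 54.7 CPM in BLA-A, at -0.78. Psma5 was at the other end, at 21.6 CPM in untreated cells, 20.1 in BLU, 14.2 in BLA, 24.5 in BLU-A and 30.0 in BLA-A. Psma3 stayed near the untreated level in BLA, BLU and BLA-A, between -0.10 and 0.02, and was at -0.34 in BLU-A.

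The beta ring contains the cutting sites and showed the widest contrast between the blackberry extract and the blackberry nanoparticles. Its 8 measured members were all below untreated cells in BLA and BLU, with medians of -0.49 and -0.25. In BLA-A all 8 were above, with a median of 0.46, and Psmb1, Psmb2, Psmb3 and Psmb6 passed 0.5. Of all genes tested, 50.8% were below untreated cells in BLA-A and 23.4% were higher by over 0.5. Among coding genes of at least 10 CPM, 24.9% were higher by that much. With scaling by total counts in place of TMM, Psmb4 went below 0 and the other 7 stayed above, with a median of 0.27.

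Psmb6 encodes the subunit with caspase-like activity. It was measured at 24.1 CPM in untreated cells, 14.2 in BLU, 11.9 in BLA, 20.1 in BLU-A and 61.0 in BLA-A. The level in BLA was 0.503 times that in untreated cells and the level in BLA-A 2.50 times, so that BLA-A stood 4.97-fold above BLA. Psmb5, the subunit with chymotrypsin-like activity that proteasome inhibitors bind, had 14.7 CPM in untreated cells, 11.2 in BLU, 7.06 in BLA, 12.5 in BLU-A and 18.3 in BLA-A. Its log2 fold change of -1.01 in BLA had a counting interval of -1.31 to -0.80, from 192 counts in BLA and 391 in untreated cells. Psmb7, which has trypsin-like activity, varied little, from -0.13 in BLA to 0.22 in BLA-A. Psmb10, its interferon-inducible counterpart, also stayed between -0.23 and 0.32.

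Among the beta subunits without a cutting site, Psmb3 was at 27.4 CPM in untreated cells, 20.5 in BLU, 12.6 in BLA, 23.2 in BLU-A and 57.7 in BLA-A. It thus had both the lowest subunit value in BLA (-1.09) and one of the highest in BLA-A (1.06). Psmb2 was at 45.2 CPM in untreated cells, 41.6 in BLU, 43.1 in BLA, 55.2 in BLU-A and 116 in BLA-A. Only the 2 nanoparticle libraries lay above the untreated one for Psmb2, by 1.35 and 0.29. Psmb1 was at 0.60 in BLA-A and -0.43 in BLA, and Psmb4 at -0.55 in BLA and 0.05 in BLA-A.

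**Figure D2:**
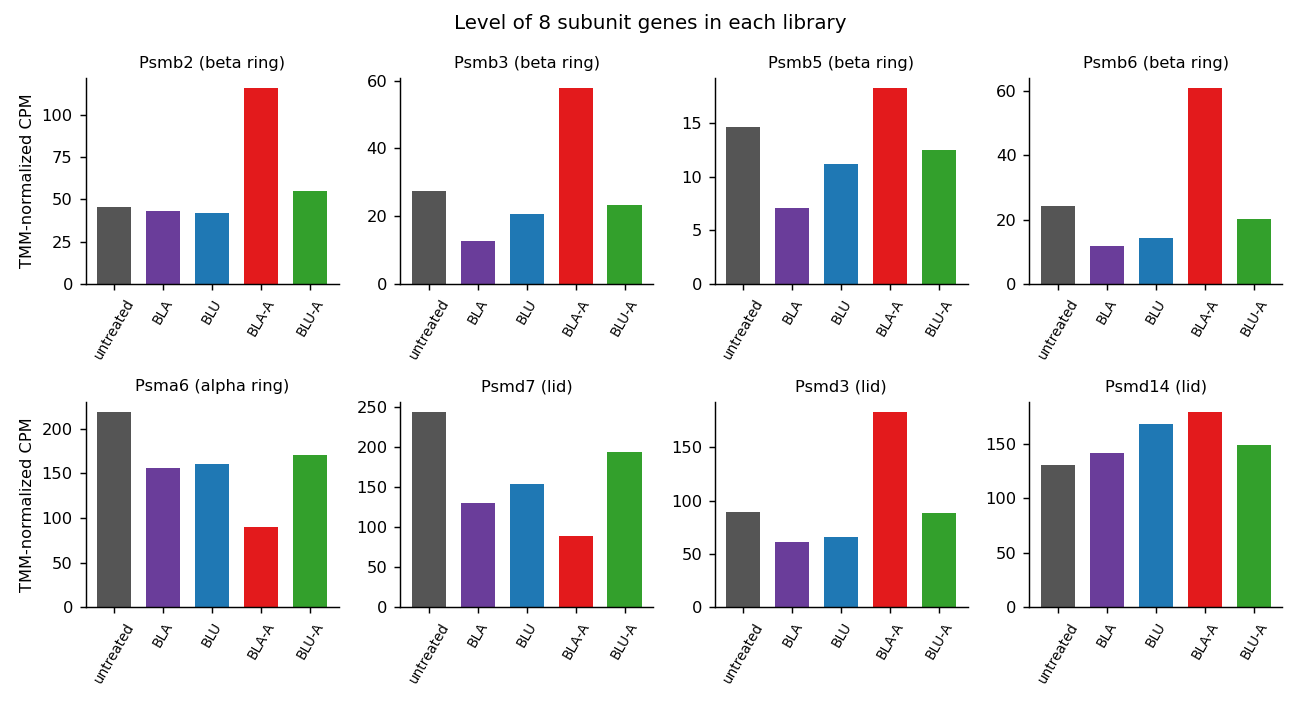
TMM-normalized CPM of 8 subunit genes in the 5 libraries, 1 bar per library and axes from 0. BLA-A is the highest bar for Psmb2, Psmb3, Psmb5, Psmb6, Psmd3 and Psmd14 and the lowest for Psma6 and Psmd7.

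The 6 ATPases of the base, the motor that unfolds substrates and drives them into the barrel, were below untreated cells in BLA, BLU and BLU-A. Their medians were -0.64, -0.43 and -0.21, the lowest of the 6 groups of subunit genes in BLA and in BLU. In BLA, Psmc3 was at -0.87, Psmc4 at -0.83, Psmc5 at -0.73 and Psmc1 at -0.54. Psmc2, the member furthest from untreated cells in BLU, was at 133 CPM in untreated cells, 84.8 in BLU, 100.2 in BLA, 110.1 in BLU-A and 93.7 in BLA-A. In BLA-A the ATPases separated, with Psmc1 at -0.88 and Psmc4 at 0.37. Psmc1 went from 215 CPM in untreated cells to 168 in BLU, 148 in BLA, 194 in BLU-A and 116 in BLA-A. Psmc4 was at 50.0 CPM in untreated cells, 38.4 in BLU, 28.0 in BLA, 32.9 in BLU-A and 64.8 in BLA-A. The BLU-A value of Psmc4, -0.60, was the one subunit difference past 0.5 in that library. Psmc6 varied least, between -0.29 and -0.21 in the 4 treatments.

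The other 3 base subunits, Psmd1, Psmd2 and Psmd4, include the scaffolds and a ubiquitin receptor. They were below untreated cells in BLA, BLU and BLU-A, with medians of -0.45, -0.33 and -0.26. Psmd1, a scaffold of the base, had 366 CPM in untreated cells, 296 in BLU, 243 in BLA, 317 in BLU-A and 285 in BLA-A, so the untreated library was the highest. Psmd4, a ubiquitin receptor, was at -0.42 in BLU, -0.29 in BLA and -0.26 in BLU-A, and at 0.32 in BLA-A.

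The lid, which contains the subunit that cuts off the ubiquitin chain, ranged from -1.45 to 1.03 in BLA-A. Psmd7, a structural partner of the deubiquitinating subunit, was at 243 CPM in untreated cells, 154 in BLU, 129.6 in BLA, 193 in BLU-A and 89.0 in BLA-A. The untreated library was the highest and each treated library lay under it, with log2 fold changes of -0.66, -0.91, -0.33 and -1.45 in the same order. Psmd7 also had the lowest mean of the 4 differences among the 35 subunit genes, -0.84. Psmd6 was at -0.18 in BLU, -0.55 in BLA, -0.03 in BLU-A and -1.19 in BLA-A. Psmd12 had a similar order, with -0.31 in BLU, -0.49 in BLA, -0.09 in BLU-A and -0.94 in BLA-A. Both encode structural subunits of the lid. Psmd3, another structural lid subunit, ran the other way in BLA-A, with 89.5 CPM in untreated cells, 66.1 in BLU, 61.0 in BLA, 88.1 in BLU-A and 183 in BLA-A. Its log2 fold change was 1.03 in BLA-A (counting interval 0.96 to 1.10), and 0.83 with scaling by total counts. Psmd11 was at 0.58 in BLA-A, and Psmd8 was at -0.73 in BLA and -0.69 in BLU with 0.13 in BLA-A, or -0.06 with scaling by total counts.

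Psmd14 was the exception among the subunit genes. It encodes the metalloprotease of the lid that cuts ubiquitin chains from substrates before they enter the barrel. Its level was 130.3 CPM in untreated cells, 168 in BLU, 141 in BLA, 149 in BLU-A and 179 in BLA-A. The untreated library was the lowest of the 5, which held for no other subunit gene. The log2 fold changes were 0.36, 0.11, 0.19 and 0.46 in the same order, with counting intervals above 0 in each treatment. Psmd14 also had the longest span of the 35, at 89582 bases.

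The 3 assembly chaperones that the naming rule includes bind the base ATPases during assembly and leave before the complex is finished. All 3 were below untreated cells in BLA, BLU and BLU-A, with medians of -0.35, -0.20 and -0.21. Psmd10, also known as gankyrin, was at 18.5 CPM in untreated cells, 16.1 in BLU, 12.8 in BLA, 14.8 in BLU-A and 16.0 in BLA-A, with the untreated library highest. Psmd5 stood apart in BLA-A at -0.70, against -0.11 in BLA. Psmd9 went from -0.35 in BLA to 0.28 in BLA-A.

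The 5 libraries were also put in order for each gene. With TMM scaling, BLA-A was the highest library for 21 of 35 subunit genes and untreated cells for 14, against 29.3% and 19.3% of all genes tested. Scaling by total counts left 16 of 35 above untreated cells in BLA-A, so BLA-A could then be the highest for at most 16. DESeq2 size factors put 22 above. BLA was the lowest library for 21 of 35, against 23.5% of all genes. BLA-A was the lowest for 7, BLU for 4, BLU-A for 2 and untreated cells for 1. Of the 17647 genes tested, these libraries were the lowest for 5763, 2534, 1720 and 3484 in the same order. With TMM scaling, no subunit gene was highest in BLA, BLU or BLU-A, where 4130, 3020 and 1916 of all genes tested were highest. The order of the 5 libraries was not repeated with another scaling.

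The nanoparticles were also compared with the extract of the same fruit. BLA-A against BLA gave a median of 0.45 over the subunit genes and -0.08 over all genes, with 17 of 35 higher and 4 lower by over 0.5, against 24.2% and 29.7% of all genes. Coding genes of at least 10 CPM also had higher medians in BLA-A than in BLA where the gene's span was short. Up to 10 kb their medians against untreated cells were -0.39 in BLA and 0.24 in BLA-A, beside -0.71 and 0.12 for subunit genes. At 10 to 20 kb they were -0.22 and 0.10, beside -0.54 and 0.05. BLA-A was not compared with BLA directly among genes of like span. The beta ring had the largest median difference, 1.17, and all 8 of its members were higher in BLA-A than in BLA. Psmb6 was at 2.31, Psmb3 at 2.15, Psmd3 at 1.58, Psmb2 at 1.42, Psmb5 at 1.31, Psmc4 at 1.20, Psma5 at 1.05 and Psmb1 at 1.03. Psma6, at -0.78, Psmd6, at -0.64, Psmd5, at -0.59, and Psmd7, at -0.54, were lower. BLU-A against BLU gave a median of 0.15, with 1 subunit gene higher by over 0.5 (Psma4, at 0.51) and 0 lower, against 10.7% and 12.1% of all genes. BLA-A and BLU-A differ in the fruit, in the particles and in the library, and the difference between these contrasts was not tested.

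The 4 treated libraries together were tested against the untreated one, in which the spread comes from the differences between treatments. Libraries grouped by fruit or by preparation were not tested against each other. It called 4 of 17647 genes (0.0227%) and 0 of 35 subunit genes (edgeR quasi-likelihood test, Benjamini-Hochberg adjustment over all genes). No subunit gene had an unadjusted p under 0.05, where 481 genes did, and DESeq2's Wald test also called 0 subunit genes, of 17 genes in all. The lowest unadjusted p among them was 0.0722, for Psmd7 (edgeR quasi-likelihood test, adjusted p = 0.999). Without the BLA-A library, 6 subunit genes had an unadjusted p under 0.05 and 0 were called, with a lowest adjusted p of 0.305 (edgeR quasi-likelihood test). A p over the threshold does not show that the levels were equal.

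The lower levels in the extracts moved together with the length of the gene. Reads were counted over whole genes, introns included, and 12 of the 35 subunit genes, Psmb2, Psmb3, Psmb6, Psmd6 and Psmd7 among them, overlapped no other annotated gene. In BLA, the median of the protein-coding genes with at least 10 CPM was -0.39 for spans up to 10 kb, -0.22 for 10 to 20 kb, -0.05 for 20 to 50 kb, 0.14 for 50 to 100 kb and 0.43 above 100 kb. Subunit genes are mostly short, with 10, 12, 8 and 5 members in the first 4 classes and 0 above 100 kb. Their medians in these 4 classes were -0.71, -0.54, -0.38 and -0.35, and 9 of 10, 12 of 12, 7 of 8 and 5 of 5 lay under the median of their class. In BLU the subunit medians were -0.45, -0.39, -0.13 and -0.07, beside -0.29, -0.18, -0.04 and 0.13 for coding genes, and 6 of 10, 11 of 12, 8 of 8 and 4 of 5 lay under the median of their class.

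Across the 35 subunit genes, the Spearman correlation of the log2 fold change with the span was 0.50 in BLU, 0.56 in BLA, 0.29 in BLU-A and -0.08 in BLA-A. Over the 8932 coding genes it was 0.59, 0.56, 0.40 and -0.03 in the same order. These are descriptions across genes that share their libraries. Psmd14, the member above 0 in both extracts, was at 0.11 in BLA, beside a median of 0.14 for coding genes of 50 to 100 kb, but at 0.36 in BLU, beside 0.13, and at 0.46 in BLA-A, beside 0.071. Most subunit genes in BLA thus lay under coding genes of like span. With the GC content of the transcript, the Spearman correlation for the subunit genes was -0.34 in BLU, -0.40 in BLA, -0.17 in BLU-A and 0.34 in BLA-A, and for coding genes -0.22, -0.11, -0.03 and 0.29 in the same order. The part of span or GC content in these differences was not tested.

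**Figure D3:**
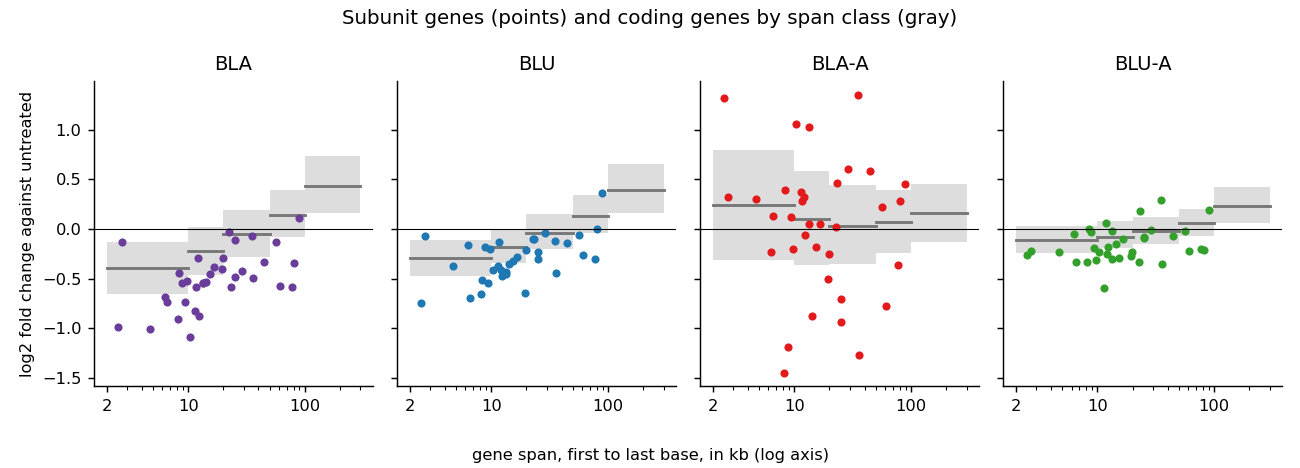
Log2 fold change of the 35 subunit genes (points) against gene span in kb on a log axis, with the median (gray line) and quartiles (gray band) of 8932 protein-coding genes in 5 span classes, the outer classes drawn to the edge of the axis. In BLA and BLU the gray medians climb from -0.39 and -0.29 in the shortest class to 0.43 and 0.40 in the longest, and most points lie under them; in BLA-A the points are on both sides.

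Because many subunit genes stood below untreated cells together in the extracts and apart in BLA-A, the 250 bases before the start of 1 transcript per gene, the canonical one in GENCODE, were read from GRCm39 and searched for 4 sets of letters on both strands. For 21 of 35 members this window ends at the first base of the gene's span, for 30 it ends within 1 kb of it, and for Psma6, Psmb1, Psmc2, Psmd5 and Psmd9 it lies further inside the gene. CCAAT, read by the factor NF-Y, was in 15 of 35 promoters of subunit genes (42.9%) and in 35.5% of the promoters of 13637 coding genes tested. TGANNNNGC is a loose pattern for the core of the antioxidant response element, to which NRF1 and NRF2 bind. It was in 10 of 35 (28.6%) and in 35.0% of coding promoters. CCGGAAG, an ETS factor site, was in 14.3% and 9.39%, and CACGTG, the E-box, in 14.3% and 7.46%. No motif contains another in full, and a match is a description of letters, not a bound site. The promoters of Psmb2 and Psmb6, highest in BLA-A, and of Psmd14, above the untreated level in all 4 treatments, are shown 5′ to 3′ on the strand of the gene. They were chosen after their values were seen. CCAAT (or ATTGG) and the response element pattern (or GCNNNNTCA) are in capitals and the last base lies next to the start.
Psmb2, + strand, chr4:126571173-126571422: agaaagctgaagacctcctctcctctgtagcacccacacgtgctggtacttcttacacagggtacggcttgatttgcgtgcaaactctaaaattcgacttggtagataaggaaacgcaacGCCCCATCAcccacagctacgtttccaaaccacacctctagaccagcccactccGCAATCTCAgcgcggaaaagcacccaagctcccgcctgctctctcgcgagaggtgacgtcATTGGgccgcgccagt
Psmb6, + strand, chr11:70415933-70416182: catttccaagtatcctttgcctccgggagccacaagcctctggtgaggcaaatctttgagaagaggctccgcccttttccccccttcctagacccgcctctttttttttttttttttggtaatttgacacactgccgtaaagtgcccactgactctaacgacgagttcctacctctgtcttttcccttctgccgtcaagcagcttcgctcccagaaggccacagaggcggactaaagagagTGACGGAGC
Psmd14, + strand, chr2:61541776-61542025: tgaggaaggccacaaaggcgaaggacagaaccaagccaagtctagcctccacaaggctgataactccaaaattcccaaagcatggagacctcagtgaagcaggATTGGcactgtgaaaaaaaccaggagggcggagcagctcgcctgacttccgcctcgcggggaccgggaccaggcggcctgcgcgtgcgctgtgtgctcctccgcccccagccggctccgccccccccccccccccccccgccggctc
Psmb2 holds 2 matches to the response element pattern and 1 CCAAT in reverse. Psmb6 holds 1 match to this pattern at the end of the window, and Psmd14 holds 1 CCAAT in reverse and no match to it. Over all members, the response element pattern stood before 2 of the 6 that were higher by over 0.5 in BLA-A and before 4 of the 8 that were lower.

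Genes that work with the proteasome were read from lists outside the rule. Among the genes that control subunit genes, Nfe2l1, which encodes NRF1, was at 143 CPM in untreated cells, 109.5 in BLU, 137 in BLA, 129 in BLU-A and 325 in BLA-A. BLA-A alone was above the untreated library, by 1.18 on the log2 scale (counting interval 1.13 to 1.24). Nfe2l2, which encodes the oxidative stress factor NRF2, was at 253 CPM in untreated cells, 213 in BLU, 229 in BLA, 248 in BLU-A and 163 in BLA-A, so that BLA-A was the lowest. Maff, a small MAF partner of these factors, was at 20.2 CPM in untreated cells, 26.1 in BLU, 32.8 in BLA, 21.4 in BLU-A and 44.2 in BLA-A. Of the 8 genes in this list, 3 were higher and 1 lower by over 0.5 in BLA-A, against 23.4% and 26.1% of all genes tested.

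Ubiquitin itself is made from several genes, and they went apart in BLA-A. Ubb, which encodes a chain of ubiquitin units, was at 52.2 CPM in untreated cells, 49.7 in BLU, 41.9 in BLA, 44.7 in BLU-A and 249.8 in BLA-A, a log2 fold change of 2.25 in BLA-A (counting interval 2.17 to 2.34). The other 4 libraries lay between 41.9 and 52.2 CPM. Rps27a, which encodes ubiquitin fused to a ribosomal protein, was at -1.07 in BLA-A. It has processed copies in the genome with which reads can be shared, so its value is uncertain. Of the 9 shuttle factors and associated enzymes, 6 were higher and 2 lower by over 0.5 in BLA-A, with a median of 0.66, where 23.4% of all genes tested were higher and 26.1% lower by that much. In BLA 2 were lower by that much and 0 higher, against 21.5% and 21.2% of all genes.

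The remaining subunits and assembly factors varied by gene. Sem1, a small lid subunit outside the naming rule, was at 1.31 in BLA-A and 0.16 in BLA. Pomp, the chaperone that matures the core particle, had -0.29 in BLU, -0.52 in BLA, -0.15 in BLU-A and 0.37 in BLA-A, close to the medians of the beta ring. Psmg2, which helps assemble the alpha ring, was at 33.7 CPM in untreated cells, 21.5 in BLU, 19.5 in BLA, 30.1 in BLU-A and 14.7 in BLA-A. Its untreated library was the highest. Psmb8, an interferon-inducible catalytic subunit, was at 26.5 CPM in untreated cells, 15.6 in BLU, 16.9 in BLA, 22.7 in BLU-A and 6.70 in BLA-A. At -1.91, it had the lowest BLA-A value of the proteasome genes described here. Psmb9, another inducible subunit, stayed near the filter, between 0.821 and 2.07 CPM. Of the 6 activators and inhibitors, those lower by over 0.5 were 1 in BLU, 2 in BLA and 0 in BLU-A, while BLA-A had 1 lower and 1 higher, against 14.6%, 21.5%, 12% and 26.1% of all genes lower in BLU, BLA, BLU-A and BLA-A. Of the 5 genes of p97 and its cofactors, which extract tagged proteins for degradation, 1 was higher by over 0.5 in each of BLA, BLU and BLA-A and 0 were lower, a share close to that of all genes (21.2%, 18.3% and 23.4% higher). None of the genes in these lists was called in the test of treated against untreated libraries (edgeR quasi-likelihood test, adjusted p = 0.999 for each gene named here).

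**Figure D4:**
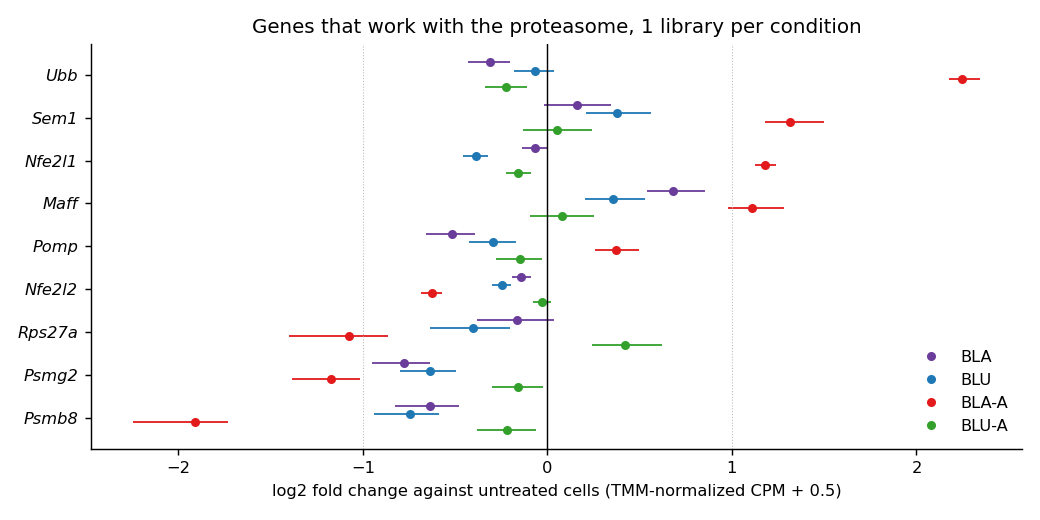
Log2 fold change against untreated cells of 9 genes outside the naming rule that belong to or work with the proteasome, 1 color per treatment, with exact binomial 95% counting intervals (1 library per condition; dotted lines at 1 in size). BLA-A has the outermost point in most rows, from 2.25 for Ubb to -1.91 for Psmb8.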

How the data were processed

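The authors deposited unnormalized counts of reads per gene, 3 columns for each of 5 conditions. They removed ribosomal RNA, aligned merged reads to GRCm39 with STAR and counted them on whole genes by strand in OmicsBox, with non-unique alignments left out. Another 2 deposited tables hold the authors' own fold changes, p-values and gene set scores and were not used. The 3 columns of a condition agree within sampling noise (over genes whose mean reached 10 counts) and were averaged, which gives 1 sample per condition, so that p-values measure only the spread between these libraries.

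A gene was kept when any of the 5 libraries reached 1 CPM. Log2 fold changes used TMM-normalized CPM plus 0.5 in edgeR 4.0.16 (R 4.3.3), with exact binomial 95% counting intervals. PCR reads without molecular identifiers are not independent molecules. All 4 treated libraries together were set against untreated cells in edgeR's quasi-likelihood fit (Benjamini-Hochberg adjusted p under 0.05), with DESeq2 1.42.0 as an alternative. The code of this fit was run on simulated counts as a check.

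Members and lists were chosen with earlier results of these data known. Named were, in each group of subunits, the genes with the highest and lowest mean difference and the highest untreated level, each member past 0.5 in size, the catalytic subunits, the members under the filter, genes of the other lists past 1, and Nfe2l1, Nfe2l2, Psmb8, Psmb9 and Pomp. A few items that this rule names are not reported here. Gene spans and starts came from GENCODE on GRCm39, whose symbols matched all 37 members. The files follow RefSeq, so lengths can differ, and levels were not compared between genes. Figures were drawn in Python 3.11.15.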

Additional observations from a re-analysis of the deposited data

Results flagged for a closer look

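In 10 of 35 subunit genes the nanoparticles differed from the extract of the same fruit in opposite directions for blackberry and blueberry, each by more than its counting interval. That is 28.6% of them, where the same held for 15.6% of all 17647 genes tested and 18% of the 8932 coding genes with a mean of at least 10 CPM. The difference between the fruits was not tested, since each condition has 1 library. This count used TMM scaling and was not repeated with another. The subunit median of BLA-A against BLA was 0.45 with TMM, 0.53 with DESeq2 size factors and 0.30 by total counts. The counting interval of Psmc2 in this contrast ended near 0, at -0.18 to -0.016. Psmc4 was 1.20 higher in BLA-A than in BLA on the log2 scale and at -0.22 in BLU-A against BLU. Psmd9 was at 0.62 and -0.21, and Psmd14 at 0.34 and -0.17. The other 7 were lower in BLA-A than in BLA and higher in BLU-A than in BLU. These were Psma6 at -0.78 and 0.089, Psmc1 at -0.34 and 0.21, Psmc2 at -0.10 and 0.38, Psmd5 at -0.59 and 0.15, Psmd6 at -0.64 and 0.15, Psmd7 at -0.54 and 0.33, and Psmd12 at -0.45 and 0.22. None of these 7 belongs to the beta ring, which follows from all 8 of its measured members being higher in BLA-A than in BLA.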

How the results depend on the processing

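Under the alternatives tried, 61 of 66 values of the median difference and 57 of 66 counts of subunit genes past 0.5 were like the main ones. A median was like the main one if its sign held and it moved under 0.5 times the width of the middle gene's counting interval. A count was judged by its ratio to the main one. Medians called like the main one include 0.024 in BLA-A (main 0.11) and 0.37 in BLA-A against BLA (main 0.45), with 1 CPM required in every library. Scaling by total counts turned the BLA-A median to -0.078 and brought that of BLA-A against BLA to 0.30. DESeq2 size factors gave a BLU median of -0.35 and 2 genes past 0.5 in BLU-A against BLU. Keeping the 12 subunit genes that overlap no other gene gave 8 past 0.5 in BLA, 3 in BLU, 8 in BLA-A (median 0.33), 10 in BLA-A against BLA (median 0.89) and 0 in BLU-A against BLU; fewer genes were counted there. A pseudocount of 2 CPM gave 0 in BLU-A against BLU, leaving out 1 of the 3 columns gave 0 to 1, and a filter of 1 count in any library gave 2 in BLU-A. A mean of at least 10 CPM, chosen after seeing the data, left each median and count like the main one and 0 subunit genes called. Apart from these, the cause of each move was not tested.

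With the 15 columns as separate samples, the quasi-likelihood test called 10 subunit genes, 9 of them lower in treated cells. It called 5 once a replicate block was added. Those columns differed by less than sampling noise and were taken as subsets of 1 library per condition, so these calls were not used. The numbers do not pair the samples (mean correlation of deviations -0.00111 over 30 pairs). No other alternative called a subunit gene.

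Leaving out members with a copy ending in -ps was not run, since the table has 0 such rows, and levels per length were not run. Depth was not the limit for 35 of the 37 genes, but 1 library per condition leaves the spread between cultures unmeasured.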
